A study of Mus musculus with 15 samples.

Results

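Rest and 6 genes for its corepressor complexes (Rcor1, Rcor2, Rcor3, Sin3a, Hdac1 and Hdac2) were followed in flow-sorted mouse enteric neural crest-derived cells (ENCDC). The 7 genes were chosen by name from the 17090 genes of the deposited RNA-seq table, and the row that the table marks as the best transcript was read for each. All 7 were detected in all 15 libraries. REST is a zinc finger protein that binds a DNA element called RE1 (repressor element 1) near neuronal genes and keeps them off in progenitors and in cells outside the nervous system. It works through a pair of complexes. Its amino terminus binds SIN3A, a scaffold, and its carboxy terminus binds CoREST (encoded by Rcor1, with the relatives Rcor2 and Rcor3), and both scaffolds carry the histone deacetylases HDAC1 and HDAC2, with the demethylase KDM1A on CoREST. In neural lineages REST is known to decline as neurons differentiate.

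Cells expressed a dominant negative retinoic acid receptor alpha (RarαDN) or did not. The E11.5 stomach groups were RarαDN LoxP/+; Wnt1Cre; ROSA26TdTomato (RarαDN, n = 4) and Wnt1Cre; ROSA26TdTomato (control, n = 4), sorted on TdTomato. The E13.5 colon groups were RarαDN LoxP/+; RETCreERT2-EYFP Tandem (RarαDN, n = 3) and RETCreERT2-EYFP Tandem (control, n = 4), sorted on EYFP after tamoxifen at E10.5. All controls therefore carried Cre and reporter but no RarαDN, and the colon controls received tamoxifen too. Wnt1Cre acts in neural crest before it reaches the gut, whereas RETCreERT2 acts in cells that express Ret when tamoxifen is given. Each library came from the organ of a single embryo on a mixed strain background. Age, organ, Cre driver, reporter and tamoxifen differ together between the experiments and cannot be told apart.

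Libraries held 6428930 to 12121327 counts in RarαDN stomach, 8585739 to 11043148 in control stomach, 6065029 to 10105584 in RarαDN colon and 7190882 to 9996628 in control colon. Levels are given as CPM, read counts scaled to the size of each library, on a single scale for all 15 libraries. Sox10, a crest and glial lineage factor, was at 34.6 CPM or more in every library. Ret, a receptor that marks enteric crest cells, was at 0.114 to 225 CPM in RarαDN stomach, against 420 to 1679 CPM in control stomach. It was thus nearly absent from some RarαDN stomach libraries, whereas Dct, a melanoblast gene, was at 473 to 945 CPM there and at 3.66 to 10.2 CPM in control stomach. Rara counts were at 72.1 to 129 CPM in RarαDN stomach and 73.5 to 104 in control stomach, and at 47.7 to 94.1 CPM in RarαDN colon and 57.3 to 84.9 in control colon. Whether the Rara row counts transcripts of the RarαDN construct was not tested. In control colon, libraries 2 and 3 had summed erythroid marker levels of 827 and 4093 CPM, against 0.703 to 77.8 CPM in RarαDN colon and 20.6 and 54.9 CPM in control libraries 1 and 4.

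Rest mRNA was higher in RarαDN than in control ENCDC at E13.5, and at E11.5 its fold change was above 0 but did not pass the test across all genes. In E11.5 stomach, Rest was at 53.3, 117, 115 and 134 CPM in RarαDN libraries 1 to 4, against 49.0, 45.3, 62.8 and 60.4 CPM in control libraries 1 to 4. The last 3 RarαDN libraries lay well above every control, whereas RarαDN library 1 lay among the controls, so the groups overlapped. The log2 fold change was 0.92 (SE 0.29, 95% interval 0.29 to 1.56, edgeR adjusted p = 0.0908). Without RarαDN library 1 it was 1.20 with an adjusted p of 0.00694, and over all 8 libraries left out in turn the adjusted p ran between 0.00694 and 0.257. In E13.5 colon, Rest was at 61.8, 58.5 and 67.0 CPM in RarαDN libraries 1 to 3, against 17.3, 19.6, 23.1 and 41.8 CPM in control libraries 1 to 4. The RarαDN libraries were close together and all lay above every control, of which library 4 was the highest. The log2 fold change was 1.33 (SE 0.33, 95% interval 0.59 to 2.06, adjusted p = 0.0372). The cells were measured in bulk, so fewer cells of a type and less RNA per cell cannot be told apart.

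The E13.5 call on Rest rested on the full set of libraries. Leaving out control library 1, 2 or 3 gave adjusted p-values of 0.055, 0.077 and 0.091, and leaving out RarαDN library 1, 2 or 3 gave 0.138, 0.109 and 0.121. Only without control library 4, the highest, did the adjusted p stay under 0.05, at 0.00982. The log2 fold change stayed between 1.18 and 1.70 in all 7 cases. Without both control libraries rich in erythroid transcripts it was 1.11, with an adjusted p of 0.186 (n = 3 and 2).

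The order of Rest group means was RarαDN stomach (105 ± 35.5 CPM), RarαDN colon (62.4 ± 4.27), control stomach (54.4 ± 8.55) and control colon (25.4 ± 11.1, all SD). Neighbours overlapped in range, except that control colon lay below control stomach in every library. The effect of RarαDN on Rest did not pass as different between the ages. The E11.5 effect minus the E13.5 effect was -0.35 on the log2 scale (95% interval -1.27 to 0.58, edgeR interaction, adjusted p = 0.647).

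**Figure D1:**
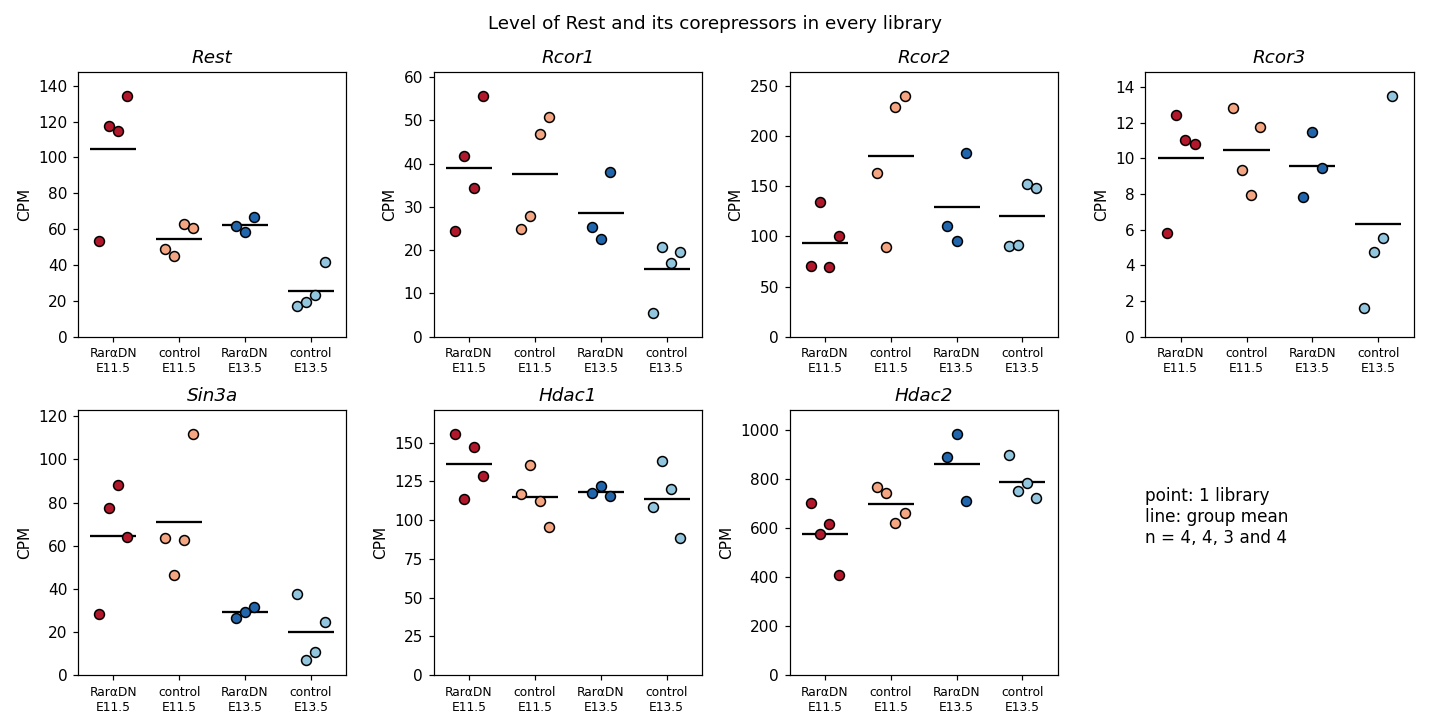
Level of each gene in CPM (linear axes from 0) in every library, 1 point per library, with the group mean as a line. Groups run RarαDN E11.5 stomach (n = 4), control E11.5 stomach (n = 4), RarαDN E13.5 colon (n = 3) and control E13.5 colon (n = 4). Rest is at 58.5 to 67.0 CPM in RarαDN colon, above all 4 colon controls (17.3 to 41.8), and 3 of 4 RarαDN stomach libraries are above all stomach controls.

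Across the 7 genes, 0 of 7 passed at E11.5 by edgeR, where 6% of the 12427 genes tested did. At an unadjusted p under 0.05 there were 2 (Rest and Rcor2), against 19.4% of all genes. DESeq2 called 1 (Rest) and limma-voom 0. No member had groups that did not overlap, against 15.7% of all genes. At E13.5, 1 of 7 passed and was higher in RarαDN (Rest), where 2.78% of 12085 genes were called higher and 8.33% were called in either direction. Rest and Rcor1 had RarαDN libraries all above the controls, as had 11.9% of all genes. At E13.5 all 7 log2 fold changes were above 0, with a median of 0.56 against 0.061 over all genes, and at E11.5 the median was -0.084 against -0.047. Fold changes moved with transcript length (below), and with that trend removed Rcor2 in colon was at -0.036. The medians of the 7 were not set against genes of like length. For the difference between the ages 0 of 7 passed by edgeR, DESeq2 or limma-voom, where 14.5% of 13412 genes did by edgeR, and 1 (Rcor2) had an unadjusted p under 0.05, against 29.3% of all genes.

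Among the CoREST genes, Rcor2 was the one with the largest difference at E11.5 and Rcor1 the one with the largest at E13.5, and neither passed. Rcor2 was at 70.3, 134, 69.2 and 101 CPM in RarαDN stomach libraries 1 to 4, against 164, 89.0, 229 and 240 CPM in control stomach libraries 1 to 4. Control library 2 was the low one and fell among the RarαDN libraries, and the other 3 controls were above all of them. The log2 fold change was -0.97 (SE 0.33, 95% interval -1.70 to -0.24, edgeR adjusted p = 0.127). Without control library 2 it was -1.14 with an adjusted p of 0.0442, within a range of 0.0442 to 0.33 over the libraries left out in turn. In colon, Rcor2 was at 110, 95.9 and 183 CPM in RarαDN and at 90.7, 91.1, 152 and 148 CPM in control. These groups overlapped throughout, with a log2 fold change of 0.14 (SE 0.28, adjusted p = 0.811). The difference between the ages was -1.05 on the log2 scale (95% interval -2.03 to -0.072, adjusted p = 0.14), and it passed only without stomach control library 2 (-1.25, adjusted p = 0.0464).

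Rcor1, the founding CoREST scaffold, was at 25.3, 22.6 and 38.1 CPM in RarαDN colon and at 5.50, 20.8, 17 and 19.6 CPM in control colon. Every RarαDN library was above every control, by little for the lowest, and control library 1 stood far below the rest. The log2 fold change was 0.91 (SE 0.46, 95% interval -0.11 to 1.93, adjusted p = 0.268). In stomach, Rcor1 ran from 24.3 to 55.6 CPM in RarαDN and from 24.9 to 50.8 CPM in control, and the log2 fold change of 0.03 (95% interval -0.73 to 0.78) allows a change of either sign. Rcor3, the least studied of the CoREST relatives, had the lowest counts of the 7 genes. It was at 5.84 to 12.4 CPM in RarαDN stomach and 7.95 to 12.8 CPM in control stomach, and at 7.81 to 11.5 CPM in RarαDN colon and 1.62 to 13.5 CPM in control colon. Its lowest library, control colon library 1, held 15 counts (exact Poisson 95% interval 8.40 to 24.7, counting error only). A change in Rcor3 was not detectable at E13.5, where the interval of its log2 fold change (0.62) was -0.97 to 2.21, or at E11.5 (-0.08, interval -1.03 to 0.86).

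Sin3a, the scaffold at the amino terminus of REST, varied widely between embryos. It was at 28.4, 77.4, 88.3 and 64.3 CPM in RarαDN stomach and at 63.7, 46.5, 62.4 and 112 CPM in control stomach, and RarαDN library 1, which was also the low one for Rest, was the lowest of these 8. In colon it was at 26.3, 29.4 and 31.6 CPM in RarαDN and at 37.4, 6.87, 10.7 and 24.4 CPM in control. The colon controls thus spread on both sides of a narrow RarαDN group. The log2 fold changes were -0.17 (SE 0.37, adjusted p = 0.869) and 0.56 (SE 0.53, adjusted p = 0.59) in stomach and colon. Without the 2 colon controls rich in erythroid transcripts, which held the 2 lowest Sin3a levels, the colon value was -0.064. The table lists 3 transcripts of Sin3a whose counts differ by at most 1 read in any library, so the values do not tell them apart.

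The deacetylase genes Hdac1 and Hdac2 were the most even. Hdac1 was at 114 to 155 CPM in RarαDN stomach and 95.5 to 135 CPM in control stomach, and at 115 to 122 CPM in RarαDN colon and 88.5 to 138 CPM in control colon. Its log2 fold changes were 0.23 (95% interval -0.20 to 0.65) and 0.10 (-0.29 to 0.49) in stomach and colon. Hdac2 was at 410 to 701 CPM in RarαDN stomach and 619 to 768 CPM in control stomach, and at 712 to 983 CPM in RarαDN colon and 723 to 898 CPM in control colon. Its log2 fold changes were -0.30 (95% interval -0.72 to 0.13) and 0.16 (-0.16 to 0.48). For both genes the intervals left out a change of 2-fold or more in either direction at both ages.

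**Figure D2:**
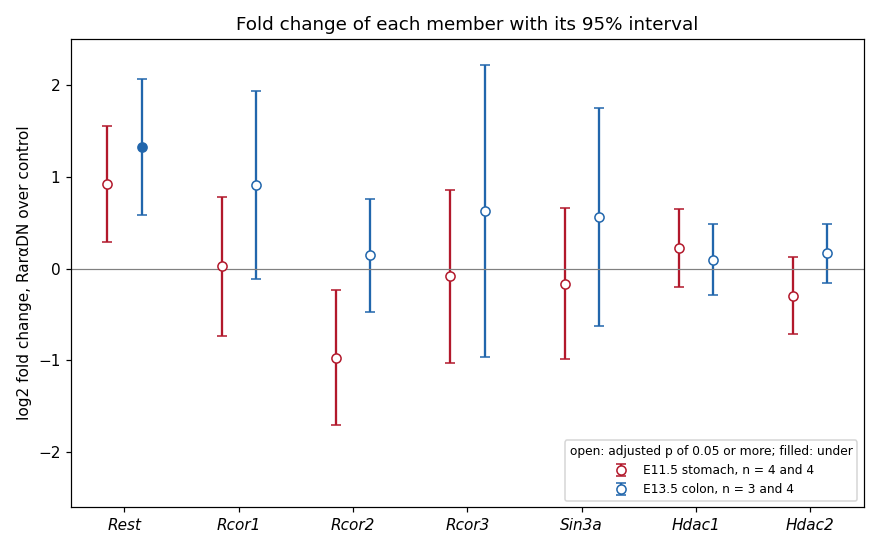
Log2 fold change of RarαDN over control for each of the 7 genes at E11.5 (red, n = 4 and 4) and E13.5 (blue, n = 3 and 4), with 95% intervals of the edgeR fit as bars. The filled point is the one with an adjusted p under 0.05 (Rest at E13.5, 1.33). All 7 colon values are above 0, and Rcor2 in stomach (-0.97) is the lowest.

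Divided by transcript length, Hdac2 was by far the most abundant of the 7 mRNAs, at 287 to 430 CPM per kilobase as a group mean. Hdac1 had 55.8 to 66.8 and Rcor2 33.2 to 63.9 CPM per kilobase. Rest had 15.0 in RarαDN stomach, 7.77 in control stomach, 8.91 in RarαDN colon and 3.63 in control colon. The other scaffolds were at like levels, with 5.78 to 14.3 for Rcor1 and 3.82 to 13.7 for Sin3a, and Rcor3 was the lowest with 1.69 to 2.79 CPM per kilobase. Among the CoREST genes, Rcor2 was thus the most abundant in all 4 groups on this per-length scale.

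Fold changes in these libraries moved with transcript length, which touches Rest because its transcript, at 7004 nucleotides, was the longest of the 7. In colon, the median log2 fold change over genes was -0.88 for transcripts under 1 kb, 0.073 between 2 and 3 kb and 0.55 between 6 and 8 kb. Rest, at 1.33, was above the median of its length class. With the length trend of each library removed, the colon value of Rest was 0.79 with an adjusted p of 0.204, and other alternatives to the test gave adjusted p-values of 0.0052 and up. In stomach the trend ran the other way, with medians of 0.36 under 1 kb and -0.28 between 6 and 8 kb, and its removal gave Rest a log2 fold change of 1.18 with an adjusted p of 0.00407 (range over such alternatives 0.00407 to 0.148). The difference between the ages was then 0.55 in place of -0.35 (adjusted p = 0.29). What set the trend was not tested.

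**Figure D3:**
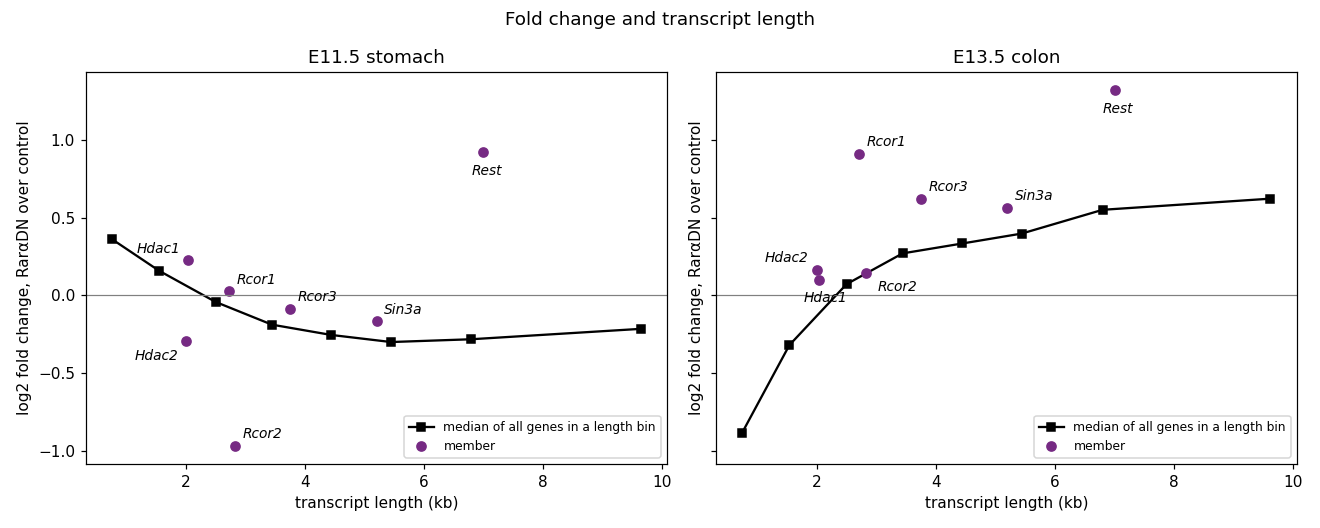
Log2 fold change of RarαDN over control against transcript length in kilobases, at E11.5 (left) and E13.5 (right). Squares are medians over all tested genes in 8 length bins and purple points are the 7 genes. In colon the medians go up with length, to 0.55 at 6 to 8 kb and 0.62 above 8 kb, and Rest (1.33) lies above them. In stomach they go down to -0.30 at 5 to 6 kb, with -0.28 at 6 to 8 kb and -0.21 above 8 kb, and Rest (0.92) lies above them.

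Of 39 further genes for REST cofactors and regulators, few differed. At E11.5, 1 was higher and 1 lower in RarαDN (6% of all genes were called, 3.07% higher and 2.93% lower), and the median log2 fold change was -0.064. Prickle1, which encodes a LIM protein known to help REST into the nucleus, was higher at 38, 63.9, 37.5 and 27.2 CPM in RarαDN stomach, against 11.8, 5.38, 13 and 18.9 CPM in control stomach. The groups were apart, with a log2 fold change of 1.74 (SE 0.43, adjusted p = 0.0363). Srrm4, a neural splicing factor that is known to switch Rest transcripts to a truncated neuronal form, was nearly lost at 0, 0.154, 0 and 2.73 CPM in RarαDN stomach, against 14.2, 25.4, 25.7 and 17.9 CPM in control stomach. Its log2 fold change was -4.89 (SE 1.18, adjusted p = 0.0345). In colon Srrm4 was at 8.56 to 14.9 CPM in RarαDN and 7.51 to 14.6 CPM in control (log2 fold change 0.20, adjusted p = 0.849), and the difference between the ages passed (-5.00, adjusted p = 0.0177). Both stomach calls were fragile. Prickle1 kept an adjusted p under 0.05 without 5 of the 8 libraries and Srrm4 without 2, with highest values of 0.121 and 0.106.

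At E13.5, 2 of the 39 were higher and 1 lower in RarαDN (8.33% of all genes were called), with a median of 0.34 against 0.061 over all genes. The colon median over all genes was -0.32 for transcripts of 1 to 2 kb, 0.27 for 3 to 4 kb and 0.33 for 4 to 5 kb. The 39 were not set against genes of like length. Usp7, whose product removes ubiquitin from REST and stabilizes it, was higher at 90.4, 76.0 and 62.6 CPM in RarαDN colon, against 21.3, 21.1, 24.7 and 35.6 CPM in control colon. The groups lay far apart, with a log2 fold change of 1.60 (SE 0.27, adjusted p = 0.00994), and the call held without any 1 library except RarαDN library 1 (adjusted p = 0.072) or 2 (0.0544). In stomach Usp7 had a log2 fold change of -0.51 (adjusted p = 0.36), and the difference between the ages passed (-2.06, adjusted p = 0.00267). Smarca4, the ATPase of the BAF chromatin remodeler, was higher in colon (log2 fold change 0.80, adjusted p = 0.0398), at 186 to 334 CPM in RarαDN and 118 to 165 CPM in control. Sin3b, the paralog of Sin3a, was lower (-0.70, adjusted p = 0.0377), at 159 to 233 CPM in RarαDN and 258 to 379 CPM in control. Smarca4 and Sin3b were not called without most single libraries, nor with the length trend removed (0.24 and -0.07). The most abundant of the 39 that did not pass were Rbbp4 and Rbbp7, histone-binding subunits shared with the SIN3 complex, with log2 fold changes of 0.08 and 0.12 in stomach and -0.52 and 0.45 in colon. Over the 39 genes, 6 differed in effect between the ages, 2 above and 4 below 0, where 7.2% and 7.34% of all genes were called on these sides.

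RE1 is the sequence through which REST finds its targets. Its core was searched as CAGCACC and GGACAG with 2 bases of any kind between them, on both strands of RefSeq promoter windows (GRCm38.p6) from 250 bases before to 50 bases after each start, with 13 letters compared. At most 2 mismatches occurred in 1.92% of all 32851 windows. Among 38 genes listed as RE1 targets, 25 had windows, and 5 of their 36 windows (13.9%) held a match. No match occurred in the 6 windows of 5 of the 7 genes themselves. Rest and Hdac1 had no window. None of the 36 target windows matched without a mismatch, and binding of REST was not measured. The matches are shown for their likeness to the core, with 3 flanking bases on each side and matching letters of the core in capitals.
Celsr3, chr9:108825917-108825937, plus strand: gttCAGCACCgtGGgCAGcac
Gria2, chr3:80802988-80803008, plus strand: ttttAGCACCgcGGACAGcgc
Syn1, chrX:20921131-20921151, minus strand: attCAGCACCgcGGtCAGagc
Chrm4, chr2:91921976-91921996, minus strand: ctcCAGCACCgaGGgCAccgc
Grin1, chr2:25319296-25319316, plus strand: acagAGaACCagGGACAGtca
All 5 lie upstream of the annotated start, at 118 to 222 bases. RE1 elements are also known in introns and far from promoters, which the windows do not cover.

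The genes with such a match were mostly low. Gria2, an AMPA receptor subunit, was at 5.66, 2.78, 1.16 and 8.77 CPM in RarαDN stomach, against 20.8, 12.3, 14 and 15.0 CPM in control stomach. The groups were apart but the test was not passed (log2 fold change -1.78, adjusted p = 0.12). Celsr3, an adhesion receptor of axon guidance, had 0 to 1.16 CPM in RarαDN stomach and 2.40 to 5.60 CPM in control stomach (log2 fold change -3.26, adjusted p = 0.174). Syn1, the gene for synapsin I, had no count in any RarαDN stomach library and 6 to 31 counts in control stomach libraries. In colon the log2 fold changes were -1.28 for Gria2, 0.08 for Celsr3 and -1.20 for Syn1, and none passed. Grin1 and Chrm4 had too few counts to be tested at either age.

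Of the 38 RE1 target genes, 10 were lower in RarαDN stomach. The summed level of the 38 was 312, 274, 261 and 291 CPM in RarαDN stomach, against 764 to 1487 CPM in control stomach. No count in any RarαDN stomach library was found for 12 of the 38. Fewer genes of any kind were detected there, at 12510 to 13221 of 17090 per library, against 14559 to 14870 in control stomach. The share of all genes without a count in the whole RarαDN stomach group was not computed. Of the 38, 27 passed the filter on low counts, which a gene can pass through the control group alone. Of these 10 were lower and 0 higher (2.93% of all genes were called lower) and 17 did not pass, among them L1cam, an adhesion molecule of axons (77.0 ± 35 CPM in RarαDN stomach and 88.0 ± 41.9 CPM in control stomach, SD, n = 4 each). All 27 log2 fold changes were below 0 and the median was -2.31 against -0.047 over all genes. RarαDN library 1, with the lowest Rest of the 4 (53.3 CPM), had the highest sum of targets of the 4 (312 CPM), and all 4 sums were below every control. That rank of library 1 was reversed without Stmn2, Stmn3 and Tubb3, the 3 genes also left out for colon below. Its sum was then the lowest, at 135.4 CPM against 248.9, 156.5 and 181.7 CPM in RarαDN libraries 2 to 4. Of these 3 genes, Tubb3 ran from 24.5 to 176 CPM in RarαDN stomach. Stmn2 and Stmn3 reached at most 0.436 and 0.154 CPM there, so the reversal lay in Tubb3 alone.

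The lower genes cover the neuronal cytoskeleton, transmission and secretion. Stmn2, a stathmin that acts on microtubules in growing axons, was at 0, 0.231, 0.436 and 0 CPM in RarαDN stomach, against 46.1, 158, 37.6 and 40.4 CPM in control stomach (adjusted p = 0.000322). Its relative Stmn3 had 3 counts in all in RarαDN stomach and 1812 in control stomach, a ratio of 576 of control over RarαDN (95% counting interval 197 to 2795). Control library 2 held 1019 of these counts, and without it the ratio was 324 (110 to 1574). Slc18a3, the vesicular acetylcholine transporter, had no count in RarαDN stomach and was at least 174-fold lower there. This bound sets 3 counts over the 4 RarαDN libraries against the control mean of 13.1 CPM. By the same measure Chgb, a granin, was at least 135-fold lower, Chrnb2, a nicotinic receptor subunit, at least 69.3-fold, Srrm3, a neural splicing factor, at least 40.1-fold and Nefh, a neurofilament, at least 23.4-fold. The Chgb bound was 68.8-fold without control library 2, which held 25.2 CPM, and the other 4 bounds moved by less than 1.5 times without any 1 control. Scg3, a granin, and Nefm, a neurofilament, were detected in every library and had log2 fold changes of -2.31 and -2.76. Nefh and Srrm3 kept their calls without 4 of the 8 libraries and Nefm without 5.

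In colon the RE1 target genes differed less. Their summed level was 1479, 1805 and 1195 CPM in RarαDN colon, against 2323, 2223, 2853 and 3008 CPM in control colon, and every RarαDN library was below every control. Most of this difference lay in Stmn2, Stmn3 and Tubb3, a neuronal tubulin (468 CPM in RarαDN colon and 722 CPM in control colon, not passed). Without these 3 genes, which were picked after their values were seen, the sums overlapped, at 560, 690 and 577 CPM in RarαDN colon and 549, 595, 650 and 772 CPM in control colon. Of 31 that passed the filter, 4 were lower (5.55% of all genes were called lower) and 1 higher, and 10 of the 31 log2 fold changes were above 0, and the median was -0.60 against 0.061 over all genes. Stmn2 was at 315, 374 and 181 CPM in RarαDN colon, against 785, 812, 1070 and 978 CPM in control colon (log2 fold change -1.61, adjusted p = 0.00824). Stmn3 (-1.34), Syp, the synaptic vesicle protein synaptophysin (-1.90), and Scg2, a granin (-4.88), were lower too. All Scg2 counts in RarαDN colon came from library 3. Nefm was the one that was higher, at 192, 294 and 135 CPM in RarαDN colon, against 104, 54.5, 106 and 101 CPM in control colon (log2 fold change 1.21, adjusted p = 0.0356). Of these 5 calls only Stmn2 remained with the length trend removed, or without both control libraries rich in erythroid transcripts, and none remained without RarαDN library 1, where 25 genes were called in all. The effect on 11 of 34 RE1 target genes differed between the ages, each more negative in stomach, beside 7.34% of all genes on that side.

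**Figure D4:**
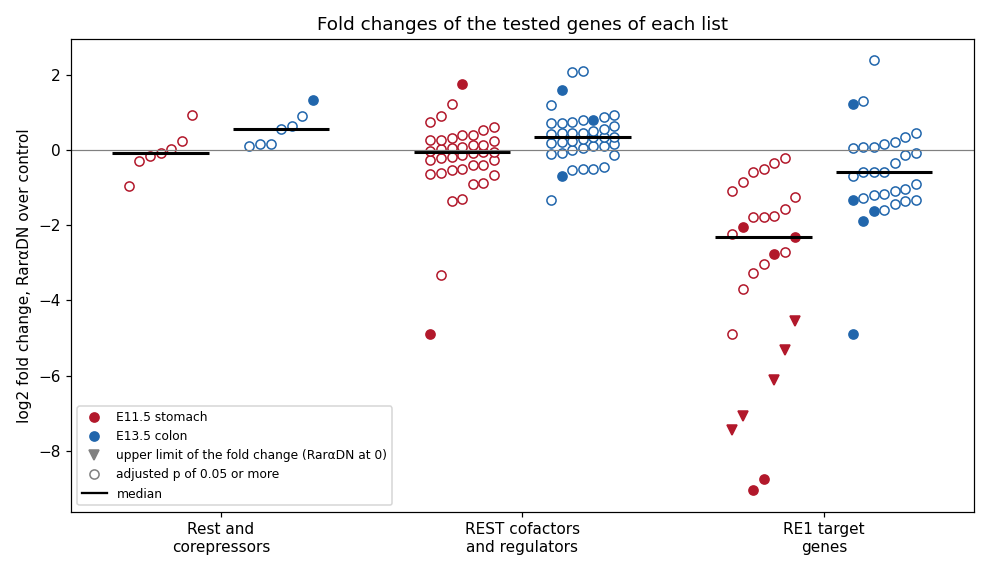
Log2 fold change of RarαDN over control for the tested genes of 3 lists at E11.5 (red) and E13.5 (blue): Rest and corepressors (7 and 7), REST cofactors and regulators (39 and 39) and RE1 target genes (27 and 31). Filled points have an adjusted p under 0.05, lines are medians and triangles are upper limits for genes with no count in RarαDN libraries. Of these 3 lists, the RE1 target genes lie lowest, with medians of -2.31 in stomach and -0.60 in colon. Neuron markers, with a stomach median of -2.80, are not drawn.

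Markers of cell make-up differed between the groups, and not the same way at both ages. The 8 neuron markers found in the table summed to 513 to 641 CPM in RarαDN stomach and 867 to 1985 CPM in control stomach, and to 1629 to 2232 CPM in RarαDN colon and 2497 to 2936 CPM in control colon. In stomach 5 of the 8 were lower (2.93% of all genes were called lower), and Uchl1, Gap43 and Ina did not pass. Their median log2 fold change in stomach was -2.80, below the -2.31 of the 27 tested RE1 target genes. In colon Uchl1 (log2 fold change -1.44) and Gap43 (-0.55) were lower (5.55% of all genes were called lower), 3 of the 8 fold changes were above 0 and the median was -0.020. None of them is on the RE1 list. The 9 markers of progenitors and glial precursors went different ways, at 1346 to 2123 CPM in RarαDN stomach and 2270 to 4083 CPM in control stomach, but 1998 to 2479 CPM in RarαDN colon and 1071 to 1458 CPM in control colon. Of 8 proliferation genes, 6 were higher in RarαDN colon (2.78% of all genes were called higher), with sums of 2896 to 2987 CPM in RarαDN colon and 1864 to 2448 CPM in control colon. In stomach 0 of 8 passed by edgeR, where 6% of all genes did, and 1 had an unadjusted p under 0.05, against 19.4% of all genes, with sums of 1875 to 2464 CPM in RarαDN stomach and 2252 to 2765 CPM in control stomach. Melanoblast markers summed to 1159 to 2655 CPM in RarαDN stomach and 19.3 to 31.5 CPM in control stomach, and leukocyte markers to 28.5 to 170 CPM and 0.425 to 14 CPM in these groups. In RarαDN stomach, Rest was lowest in library 1 (53.3 CPM), which had neither the highest nor the lowest melanoblast or leukocyte sum, but the lowest sum of progenitor and glial precursor markers of these 4 libraries (1346 CPM, against 1537 to 2123 CPM in the other three) and of mesenchyme markers (163 CPM, against 181 to 334 CPM). In colon, melanoblast sums were at most 30.3 CPM and leukocyte sums at most 7.40 CPM in any library. The part of cell make-up in the Rest levels was not tested.

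**Figure D5:**
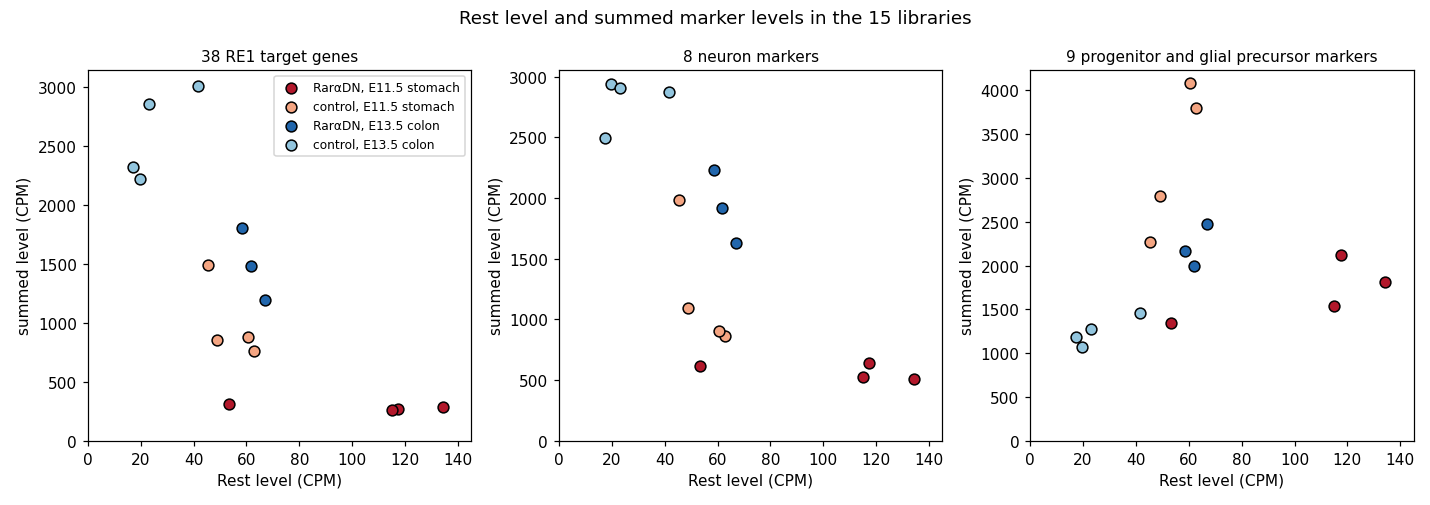
Rest level (CPM) on the horizontal axes against the summed level (CPM) of 38 RE1 target genes, 8 neuron markers and 9 progenitor and glial precursor markers, 1 point per library (15 libraries, 4 groups by colour). Control colon libraries combine the lowest Rest (17.3 to 41.8 CPM) with the highest RE1 sums (2223 to 3008 CPM), and RarαDN stomach libraries have the lowest RE1 sums (261 to 312 CPM), with Rest at 53.3 to 134 CPM.

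The genes whose levels followed Rest most closely over the 15 libraries were found by the root mean square (RMS) difference of log2 CPM, each gene centred on its own mean, among 6706 genes above the median level. Among the nearest were Ptpn11 (0.23), a phosphatase of receptor tyrosine kinase signaling, Ubn1 (0.34), a histone H3.3 chaperone subunit, Cenpf (0.39), a kinetochore protein, and Mtap4 (0.40), a microtubule protein. The median RMS difference over all candidates was 0.97. Ptpn11 averaged 119 CPM in RarαDN stomach, 67.2 in control stomach, 67.2 in RarαDN colon and 33.6 in control colon, close to the Rest pattern of 105, 54.4, 62.4 and 25.4 CPM. For Rcor2 the nearest genes were Stat3 (0.24), Eif4g2 (0.29), Flywch1 (0.29), Dcaf7 (0.29) and Rhobtb3 (0.30), with a median of 0.74. The 2 lists share no gene. The libraries share depth, length trend and cell make-up, so these values are a description of likeness alone.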

How the data were processed

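ENCDC were sorted from single embryonic organs and their RNA was amplified (SMART) and made into Nextera XT libraries, each sequenced in 2 runs that were combined, single-end, on an Illumina HiSeq. The authors removed repeat and ribosomal RNA reads, mapped with RUM and deposited raw counts for 22365 RefSeq transcripts. The version, genome build and annotation release were not given in the sources used here. Deposited log2 values, quantile-normalized by the authors, and the authors' log2 fold changes and FDR values (p-values adjusted for multiple testing) were not used.

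Counts of the best transcript of each of 17090 genes were tested in each age with edgeR 4.0.16 (TMM scaling, filterByExpr, robust quasi-likelihood test, R 4.3.3), with Benjamini-Hochberg adjustment over all genes tested and a threshold of 0.05. The difference between the ages was the interaction in a fit of all 4 groups. SE is the absolute log2 fold change over the square root of F. CPM used TMM over 15 libraries. Transcript lengths came from GENCODE M21 (97.8% of genes). The tests were checked on simulated data. Alternatives were RLE scaling, library totals, other filters, DESeq2 1.42.0, limma-voom 3.58.1, all 4 groups in 1 fit, a replicate block, the transcript with the largest total, removal of the length trend, and libraries left out. Bounds without single controls and RE1 sums without 3 genes were added after seeing the data. No replicates were near-identical.

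Named were all 7 genes, cofactor genes past the threshold and the 2 most abundant not past it, up to 10 RE1 target genes per age with the lowest adjusted p past the threshold, the targets with a promoter match and the 5 nearest genes to Rest and Rcor2. Some genes that this rule names are not reported here. The genes and lists were chosen with earlier results of these data known. The p-values measure the spread between embryos. No unique molecular identifiers were used, so intervals on counts cover counting error only.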

Additional observations from a re-analysis of the deposited data

How the results depend on the processing

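Over 45 named values, 424 recalculations with another setting and 321 with a library left out kept the direction and the side of the threshold, 32 and 56 lost the call, 4 and 3 gained it and 7 and 12 changed sign, all 19 of these in values that had not passed. With RLE scaling, library totals, other filters or the transcript with the largest total, the counts of called genes stayed within 1.5 times those reported, except that library totals gave 6 cofactor genes in colon.

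DESeq2 called 1 of the 7 genes (Rest) and 1367 genes in all in stomach, against 745 by edgeR, and 7 cofactor genes and 1723 genes in all in colon, against 1007, and for the difference between the ages 10 cofactor genes. With all 4 groups in 1 fit, colon gave 1 cofactor gene, 1 RE1 target gene and 649 genes in all. With the length trend removed, stomach gave 1 of the 7 genes (Rest), log2 fold changes of 0.094 for Rcor3 and 0.10 for Sin3a, and colon gave 0 of the 7 genes, 1 cofactor gene, 1 RE1 target gene, 206 genes in all and -0.036 for Rcor2. The difference between the ages was then 0.55 for Rest and 0.11 for Sin3a, with 3 cofactor genes. Without both control libraries rich in erythroid transcripts, colon gave 0 of the 7 genes, 1 cofactor gene, 1 RE1 target gene, 212 genes in all and -0.064 for Sin3a, and the difference gave 0.021 for Sin3a and 2 cofactor genes. The cause of these changes was not tested.

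Replicate numbers were not taken as pairs in the main tests. Deviations of same-numbered libraries correlated at -0.258 to 0.31 in stomach and 0.0452 to 0.0564 in colon. The best correlations with another number were 0.103 to 0.368 and 0.0154 to 0.143. With so few libraries per group, these values cannot decide whether same-numbered libraries were paired. With a replicate block, stomach gave 1 cofactor gene, 6 RE1 target genes and 350 genes in all, and colon gave 2 RE1 target genes. The block kept 0 of the 7 genes in stomach and 1 (Rest, log2 fold change 1.70) in colon.

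With libraries left out in turn, stomach gave 0 to 1 of the 7 genes, 0 to 3 cofactor genes, 7 to 16 RE1 target genes and 324 to 1143 genes in all, with 324, 351 and 363 without control library 1, 3 and 4. Colon gave 0 to 1, 0 to 4, 0 to 5 and 25 to 1258 in that order, with the lowest total without RarαDN library 1 and 44 without RarαDN library 2. The difference between the ages passed for 0 to 1 of the 7 genes and 4 to 8 cofactor genes. Log2 fold changes in stomach ran between -0.19 and 0.25 for Rcor1, -0.21 and 0.15 for Rcor3, -0.30 and 0.15 for Sin3a, -0.041 and 0.21 for Rbbp4 and -0.0090 and 0.21 for Rbbp7, and in colon between -0.18 and 0.32 for Rcor2.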
